A study of Homo sapiens with 4 samples.

Results

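The miR-181 family was examined in hESC-derived cortical interneurons as 7 of the 2656 mature miRNAs in the count table. The members were chosen by name, without use of their values, although earlier results of these data were known. They were hsa-miR-181a-5p, hsa-miR-181b-5p, hsa-miR-181c-5p, hsa-miR-181d-5p, hsa-miR-181a-3p, hsa-miR-181a-2-3p and hsa-miR-181c-3p. All 7 passed the filter on low counts, which kept 863 miRNAs. The table also lists miR-181b-3p, miR-181b-2-3p and miR-181d-3p, the remaining arms of the same hairpins, and these 3 were read beside the members.

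Small RNA libraries had been made from cortical interneurons differentiated from H1, a single line of human embryonic stem cells. In the exposed group (n = 2 libraries) the culture medium held ethanol at around 50 to 100 mM for 7 days, and the cells were collected after a further day without ethanol. In the unexposed group (n = 2 libraries) the cells were kept for 7 days without ethanol. The study describes the treatments as done in duplicate, but no source says whether the duplicates came from separate differentiations, so P values measure only the spread between these treatments of 1 line. The comparison asks whether ethanol exposure shifted miRNA levels in this cell model.

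The libraries held between 12100425 and 24858230 counts, and both exposed libraries were deeper than both unexposed libraries, so that depth and exposure cannot be told apart. Markers of neurons, 8 of 8 of them found, summed to between 303942 and 483431 CPM (counts per 1000000 counts of the library, scaled with edgeR's TMM method). Most of this sum was miR-9-5p (157331 to 253997 CPM) and miR-7-5p (79239 to 187052 CPM), while miR-124-3p stood at 2189.6 to 5405 CPM. Markers of pluripotent stem cells summed to between 2.42 and 3.89 CPM with 3 of 8 at 0 in every library, and blood cell markers to between 0.389 and 0.986 CPM with 2 of 5 at 0, among them miR-142-3p. The oligodendrocyte markers (75.7 to 116 CPM, mostly miR-219a-2-3p) and those of mesenchyme and muscle (282 to 503 CPM, none of 6 at 0) were low beside the neuronal list. Their summed levels overlapped between exposed and unexposed libraries for oligodendrocytes. For mesenchyme and muscle they were 282 to 346 CPM in exposed and 349.9 to 503 CPM in unexposed libraries, and for stem cells 2.42 to 2.92 and 3.48 to 3.89 CPM, and the blood cell sums, of at most 16 counts per marker, were 0.952 to 0.986 and 0.389 to 0.593 CPM. Their part in the results was not tested. The labelled cell type, a cortical interneuron, is not marked by any miRNA of these lists. How far the neuronal sum, carried by few of its miRNAs, measures neuronal content was not tested.

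A miRNA hairpin is cut into a duplex of a 5p and a 3p arm, of which one is usually kept in the silencing complex as the guide while the other, the passenger, is mostly lost. The guide finds mRNAs through its seed, bases 2 to 8, so that arms with the same seed can share targets. The miR-181 5p arms are called the guides here. This includes miR-181c-5p, although the 3p arm of its hairpin had more counts in every library. The miR-181 5p arms are abundant in brain and in lymphocytes. They are known for tuning T cell receptor signalling and, in neurons, the glutamate receptor subunit GluA2.

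The mature sequences show which members share a seed and how little separates the others, which bears on how reads could be told apart. They are given 5′ to 3′ from RefSeq (GRCh38.p14), which held all 7 members and the 3 other arms, with the seed in capitals.
miR-181a-5p: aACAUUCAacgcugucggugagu
miR-181b-5p: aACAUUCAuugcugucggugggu
miR-181c-5p: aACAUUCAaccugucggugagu
miR-181d-5p: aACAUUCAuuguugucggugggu
miR-181a-3p: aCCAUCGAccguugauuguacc
miR-181a-2-3p: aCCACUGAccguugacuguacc
miR-181c-3p: aACCAUCGaccguugaguggac
miR-181b-3p: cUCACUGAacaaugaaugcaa
miR-181b-2-3p: cUCACUGAucaaugaaugca
miR-181d-3p: cCACCGGGggaugaaugucac

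The 4 guides share the seed ACAUUCA, which among the miRNAs of the table with a RefSeq sequence is also carried by miR-4262. miR-4262 had 0 counts in all 4 libraries, which allows a level of up to 0.121 to 0.248 CPM (3 counts over the library total without TMM scaling, counting error only). miR-181b-5p and miR-181d-5p differ by 1 substitution, C12U, counted from the 5′ end of miR-181b-5p. miR-181c-5p is miR-181a-5p with 1 base less. miR-181a-5p and miR-181b-5p differ by A9U, C10U and A21G. Reads with sequencing errors or trimmed ends can therefore pass from one guide to another in counting. The handling of reads with several matches is not given in the sources used here, and its part in the counts was not tested.

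The 3p members each have a seed of their own. miR-181a-3p and miR-181a-2-3p differ by U5C, C6U and U16C, with the first and second of these in the seed. miR-181c-3p begins 1 base earlier than miR-181a-3p: without its first base, its next 15 bases are those with which miR-181a-3p starts, yet the seeds are ACCAUCG and CCAUCGA. miR-181b-3p and miR-181b-2-3p share the seed UCACUGA.

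The family comes from 6 hairpins in 3 clusters (positions on GRCh38, GENCODE 29, matched by name). MIR181A1 (chr1:198859044-198859153) and MIR181B1 (chr1:198858873-198858982) lie 61 bases apart on the minus strand, inside an intron of MIR181A1HG, a gene for a long noncoding RNA. MIR181A2 (chr9:124692442-124692551) and MIR181B2 (chr9:124693710-124693798) lie 1158 bases apart on the plus strand in an intron of MIR181A2HG, and opposite to an intron of NR6A1. MIR181C (chr19:13874699-13874808) and MIR181D (chr19:13874875-13875011) lie 66 bases apart on the plus strand, in an intron of NANOS3. The mature miR-181a-5p is identical from both of its hairpins, and so is miR-181b-5p, so the 5p counts do not say which cluster they came from. The 3p arms of the A and B hairpins differ in sequence and do.

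The hairpins of the 3p members and of MIR181D are given from RefSeq (GRCh38.p14), 5′ to 3′, with the mature 5p and 3p arms in capitals. MIR181B1 and MIR181B2, on which the miR-181b ratios rest, are not printed.
MIR181A1: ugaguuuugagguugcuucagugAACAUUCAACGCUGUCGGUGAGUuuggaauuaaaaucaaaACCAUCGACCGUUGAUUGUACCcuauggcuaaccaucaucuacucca
MIR181A2: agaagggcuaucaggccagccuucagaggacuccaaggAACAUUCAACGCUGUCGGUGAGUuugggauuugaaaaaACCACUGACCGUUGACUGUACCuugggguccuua
MIR181C: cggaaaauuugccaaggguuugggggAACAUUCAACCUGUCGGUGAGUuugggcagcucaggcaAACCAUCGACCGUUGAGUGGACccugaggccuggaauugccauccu
MIR181D: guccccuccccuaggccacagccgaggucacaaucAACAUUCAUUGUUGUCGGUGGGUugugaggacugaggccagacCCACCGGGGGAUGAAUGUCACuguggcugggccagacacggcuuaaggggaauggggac

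The family was an abundant one in these interneurons. With ethanol the 4 guides together took 1.10% of the library in replicate 1 (1.10 to 1.11%, 95% Wilson interval) and 0.869% in replicate 2 (0.866 to 0.873%). Without ethanol they took 0.858% (0.854 to 0.863%) and 0.865% (0.859 to 0.870%). Scaled by TMM, their sum was 9288 ± 584 CPM with ethanol and 9138 ± 1424 CPM without it (SD, n = 2 for each). The higher raw share of exposed replicate 1 thus came with a TMM factor of 1.13, and after scaling the highest sum belonged to unexposed replicate 1 (10145 CPM).

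hsa-miR-181a-5p led the family. Its levels were 5949.8 and 5259 CPM with ethanol and 6158 and 4662 CPM without it, and it ranked between 25 and 29 among all mature miRNAs of a library. hsa-miR-181b-5p followed with 2845 and 2717 CPM with ethanol and 3069.6 and 2651 CPM without it. For both guides the unexposed libraries lay on either side of the exposed ones.

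hsa-miR-181d-5p, studied in glioblastoma as a repressor of the DNA repair gene MGMT, stood at 880.1 and 881 CPM with ethanol and 899 and 802 CPM without it. hsa-miR-181c-5p, which has been described in mitochondria as well as in the cytoplasm, was by far the rarest guide, at 25.9 and 19.0 CPM with ethanol and 17.5 and 15.2 CPM without it (196 to 652 counts). Both exposed libraries were above both unexposed libraries for miR-181c-5p, while those of miR-181d-5p overlapped.

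Within the guide pool, miR-181a-5p made up 57.3 to 61.3% of the counts of a library, miR-181b-5p 29.3 to 32.6%, miR-181d-5p 8.86 to 9.92% and miR-181c-5p 0.173 to 0.266%. The share of miR-181c-5p was 0.240 ± 0.0369% (SD, n = 2) in exposed and 0.180 ± 0.0101% (SD, n = 2) in unexposed cells. Shares of different sequences also carry the unequal ligation and amplification of small RNA libraries, which was not measured here.

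The 3p arm of MIR181A2, miR-181a-2-3p, was the third most abundant arm of the family, above the guide miR-181d-5p. It stood at 2163 and 1909 CPM with ethanol and 1504 and 2146 CPM without it. The low value was that of unexposed replicate 1, and the groups overlapped. Its counterpart from MIR181A1, miR-181a-3p, was at 265 and 180.2 CPM with ethanol and 189.9 and 148 CPM without it, with exposed replicate 1 above the other libraries.

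hsa-miR-181c-3p was at 197 and 143 CPM with ethanol and 142 and 92.8 CPM without it. The groups did not overlap, but the lower exposed and the higher unexposed library were all but equal. Of the arms outside the members, miR-181b-3p was at 102 to 125 CPM, miR-181b-2-3p at 16.5 to 18.9 CPM and miR-181d-3p at 2.02 to 3.05 CPM (26 to 77 counts).

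**Figure D1:**
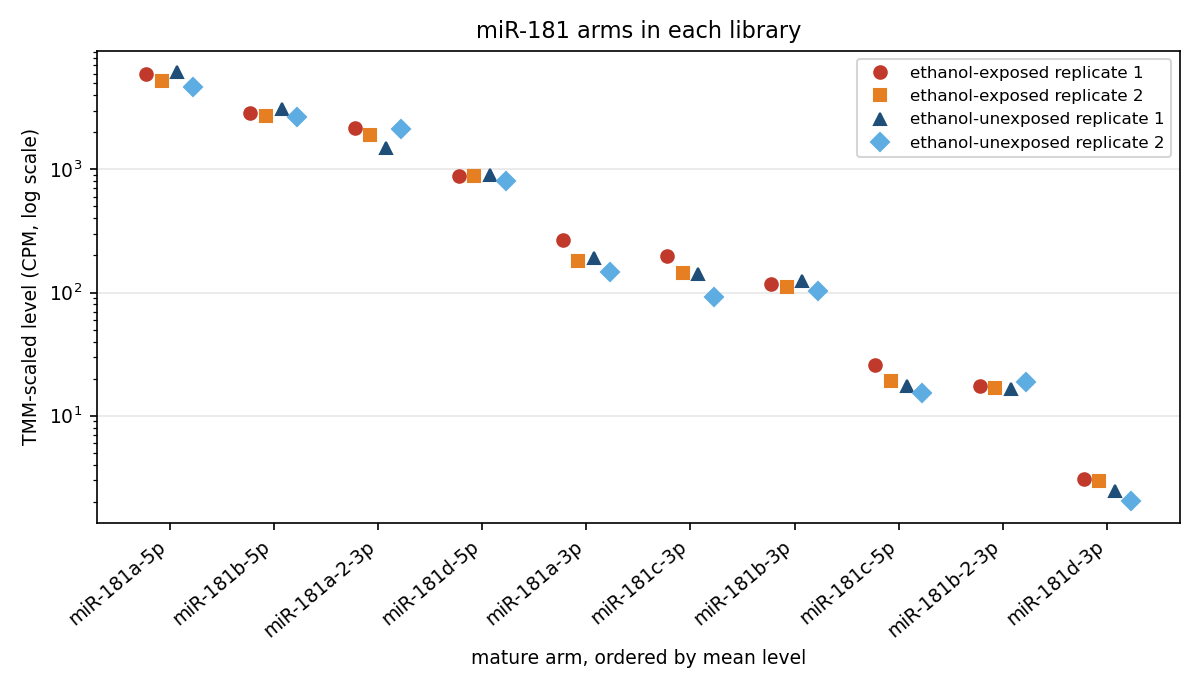
TMM-scaled level in CPM (log axis) of the 10 mature arms of the miR-181 hairpins, with 1 point for each of the 2 ethanol-exposed and 2 unexposed libraries. The arms spread from 2.02 CPM for miR-181d-3p to 6158 CPM for miR-181a-5p, and the 4 libraries of an arm stay close together beside that range.

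In this order the ranges of neighbouring arms over the 4 libraries did not overlap from miR-181a-5p to miR-181a-3p. miR-181a-3p (148 to 265 CPM) overlapped with miR-181c-3p (92.8 to 197 CPM), although it was the higher in every library, and miR-181c-3p with miR-181b-3p, below which it fell in unexposed replicate 2. miR-181c-5p (15.2 to 25.9 CPM) and miR-181b-2-3p could not be ordered by their ranges either. The members that varied most were miR-181c-3p, with 2.13 between the highest and the lowest library as a ratio, and miR-181a-3p, with 1.79, and those that varied least were miR-181d-5p, with 1.12, and miR-181b-5p, with 1.16.

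Ratios of arms counted in the same library need no scaling between libraries, and they set the hairpins apart. For MIR181C most counts were of its 3p arm. miR-181c-3p took 88.4% (95% Wilson interval 87.5 to 89.2%) and 88.2% (87.2 to 89.2%) of the counts of both arms in the exposed libraries and 89.0% (87.5 to 90.3%) and 85.9% (84.0 to 87.6%) in the unexposed libraries. For the neighbouring MIR181D almost all counts were of its 5p arm. There miR-181d-3p took 0.346% (0.277 to 0.432%) and 0.335% (0.266 to 0.421%) in the exposed libraries. In the unexposed libraries it took 0.273% (0.190 to 0.391%) and 0.251% (0.172 to 0.368%). The hairpins that lie 66 bases apart thus differed in the arm that was counted most, in all 4 libraries. The intervals cover counting error only. The part of reads passing between similar guides, or of passenger loss, in these shares was not tested.

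The A and B hairpins leaned to different clusters when read by their 3p arms. Of the miR-181a 3p counts, 6.45 to 11.2% were miR-181a-3p from MIR181A1 on chromosome 1, and the rest were miR-181a-2-3p from MIR181A2 on chromosome 9. Of the miR-181b 3p counts, 84.4 to 88.3% were miR-181b-3p from MIR181B1 on chromosome 1, and the rest came from MIR181B2 on chromosome 9. On the log2 scale miR-181a-3p to miR-181a-2-3p was -3.03 and -3.40 in exposed and -2.98 and -3.86 in unexposed cells, and miR-181b-3p to miR-181b-2-3p was 2.76 and 2.71 in exposed and 2.91 and 2.43 in unexposed cells. The signs were opposite in every library. A 3p count reflects the loss of the passenger as well as the output of the hairpin, and these cannot be told apart here.

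The balance of arms varied little between libraries for miR-181b, while for miR-181a it differed between the unexposed libraries but hardly between the exposed ones. The log2 ratio of miR-181b-5p to its 3p arms was 4.41 ± 0.02 with ethanol and 4.45 ± 0.01 without it (SD, n = 2 for each). The same ratio for miR-181a-5p was 1.29 and 1.33 in exposed but 1.86 and 1.02 in unexposed cells, where 3p arms made up 21.6% of all miR-181a counts in replicate 1 and 33.0% in replicate 2.

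**Figure D2:**
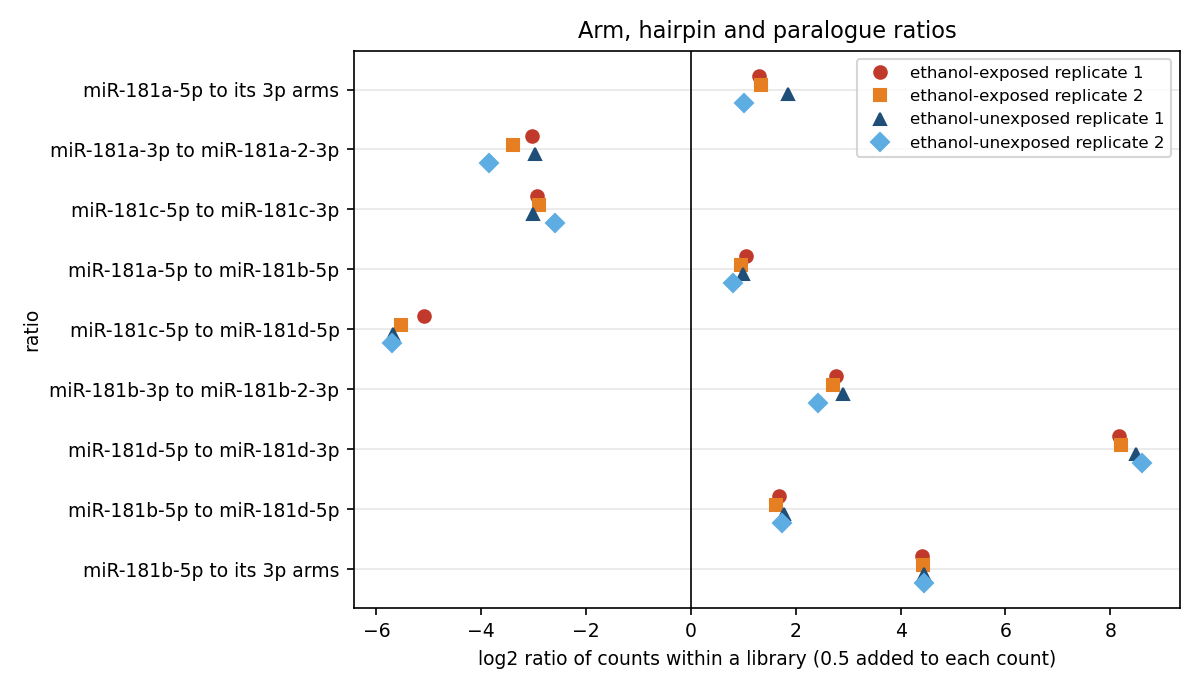
Log2 ratio of counts within each library (0.5 added to each count) for 9 ratios of miR-181 arms, hairpins and paralogues, with 1 point for each library. Points left of 0 mark ratios whose first arm was the rarer, as for miR-181c-5p to miR-181c-3p (between -3.02 and -2.60), and the unexposed libraries lie farthest apart for miR-181a-5p to its 3p arms and miR-181a-3p to miR-181a-2-3p.

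Of the 5 ratios tested between exposed and unexposed cells, only miR-181c-5p to miR-181d-5p, the guides of the chromosome 19 cluster, did not overlap. It was -5.09 and -5.53 in exposed and -5.68 and -5.71 in unexposed cells, a difference of 0.39 with a two-sided exact permutation p of 0.33, the smallest that 2 libraries against 2 allow, and 1 after Benjamini-Hochberg adjustment over the 5 ratios. The other 4 differences, all with overlapping groups, were 0.10 for miR-181a-5p to miR-181b-5p (exact permutation p = 0.667), and -0.13 for miR-181a-5p to its 3p arms, 0.20 for miR-181a-3p to miR-181a-2-3p and -0.11 for miR-181c-5p to miR-181c-3p (exact permutation p = 1 for each). Without unexposed replicate 1 these last 3 were 0.29, 0.64 and -0.31, and without unexposed replicate 2 they were -0.55, -0.23 and 0.10, so that their sign depended on which unexposed library was kept. The difference in miR-181c-5p to miR-181d-5p also moved with single libraries, to 0.16 without exposed replicate 1 and to 0.61 without exposed replicate 2. Ratios that were not tested could lie apart as well. Exposed libraries were below unexposed ones without overlap for miR-181d-5p to miR-181d-3p (difference -0.36), miR-181b-5p to miR-181d-5p (-0.09) and miR-181b-5p to its 3p arms (-0.04). The groups of miR-181b-3p to miR-181b-2-3p overlapped. For comparison, the groups of 33.4% of all tested miRNAs lay apart in either direction. The ratio with miR-181d-3p rested on 26 to 77 counts of that arm.

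Ethanol exposure was followed by no change in the miR-181 family that passed the test. Of the 7 members, 0 had an unadjusted P under 0.05 in edgeR's quasi-likelihood test, where 39 of the 863 tested miRNAs (4.52%) did, and 0 had an adjusted p under 0.05, as in the whole table (0%). None passed a fold change of 2 together with that P (2.32% of all tested). limma-voom and DESeq2 also gave 0 members with a P under 0.05. The log2 fold change of exposed over unexposed cells was positive for 6 members and negative for 1, against 48.8% positive over all tested miRNAs, and its median was 0.16, beside -0.01 over all tested. The exposed libraries were above the unexposed libraries without overlap for 2 of the 7 (18.8% of all tested) and below them for 0 (14.6%), so that 2 of 7 were apart in either direction (33.4%).

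The guides miR-181a-5p, miR-181b-5p and miR-181d-5p had log2 fold changes of 0.05 (standard error 0.24), -0.04 (standard error 0.22) and 0.05 (standard error 0.21). Their 95% intervals ran from -0.51 to 0.61, from -0.54 to 0.46 and from -0.43 to 0.53, so that changes inside these ranges are not excluded. The size of change that these libraries could detect was not tested. The unadjusted P was 0.840, 0.856 and 0.815 and the adjusted p was 0.983 for each in edgeR. Their direction depended on the scaling, since it turned with upper quartile scaling for miR-181a-5p and miR-181d-5p and with library size only for miR-181b-5p, settings that move the median of all tested miRNAs to -0.12 and 0.14.

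For miR-181c-5p the log2 fold change was 0.45 (standard error 0.28, 95% interval -0.20 to 1.11), with an unadjusted P of 0.150 and an adjusted p of 0.922 in edgeR. miR-181a-3p followed with 0.40 (standard error 0.27, 95% interval -0.22 to 1.02) and an adjusted p of 0.922 in edgeR. miR-181a-2-3p had 0.16 (standard error 0.25, 95% interval -0.41 to 0.73) with an adjusted p of 0.968 in edgeR, and -0.08 without unexposed replicate 1. Without exposed replicate 1 the values of miR-181c-5p and miR-181a-3p were 0.22 and 0.10, and without exposed replicate 2 they were 0.66 and 0.65, while miR-181a-3p was at 0.22 without unexposed replicate 2.

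miR-181c-3p had the largest fold change of the members, a log2 value of 0.53 (standard error 0.29, 95% interval -0.14 to 1.20), or 1.45-fold, with an unadjusted P of 0.104 and an adjusted p of 0.922 in edgeR. It was the member whose call depended on single libraries. Without unexposed replicate 1 it was at 0.87 in edgeR, with an unadjusted P of 0.010 and an adjusted p of 0.262. Without unexposed replicate 2 it was at 0.25 (edgeR, adjusted p = 0.832), without exposed replicate 1 at 0.28 (adjusted p = 1) and without exposed replicate 2 at 0.75 (adjusted p = 0.992). With library size only it was at 0.73, with an unadjusted P of 0.0451 and an adjusted p of 1 in edgeR, while the median of all tested miRNAs stood at 0.14. Over all alternatives its adjusted p ranged from 0.262 to 1.

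**Figure D3:**
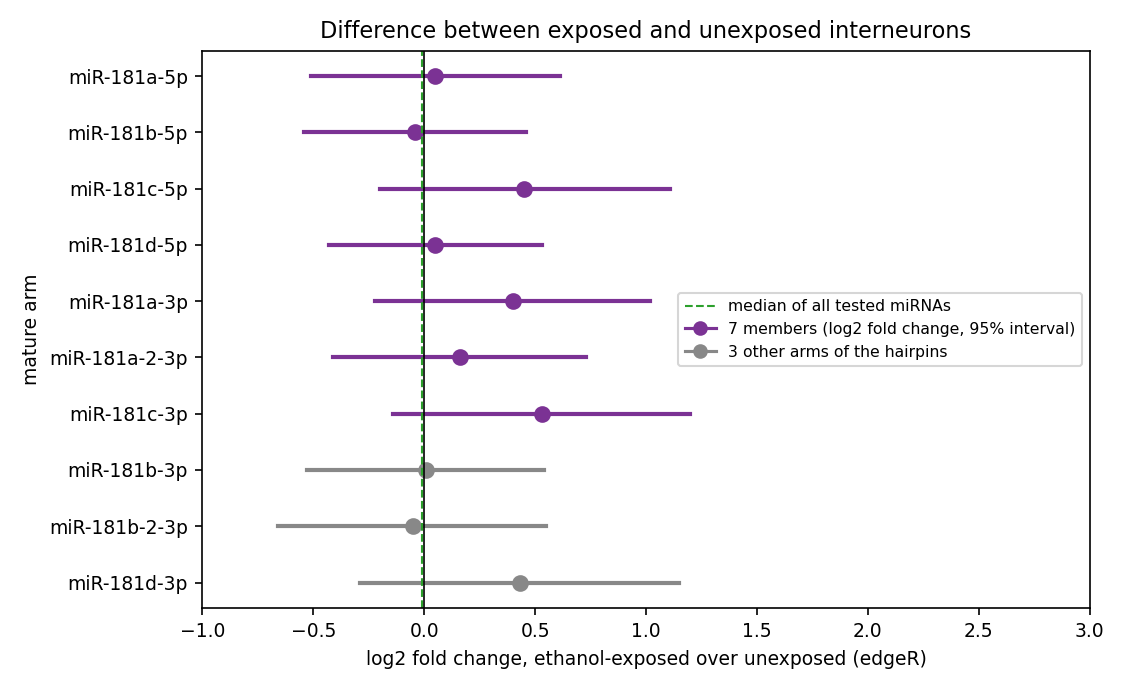
Log2 fold change of ethanol-exposed over unexposed interneurons in edgeR (points) with 95% intervals (lines) for the 7 members and the 3 other arms, with the median of all 863 tested miRNAs as a dashed line at -0.01. Every interval includes 0, and the highest points are those of miR-181c-3p (0.53), miR-181c-5p (0.45) and miR-181d-3p (0.43).

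The arms outside the members gave log2 fold changes of 0.01 for miR-181b-3p, -0.05 for miR-181b-2-3p and 0.43 for miR-181d-3p in edgeR. Of the arms of the chromosome 19 cluster, miR-181c-5p, miR-181c-3p and miR-181d-3p therefore lay above 0.4, and miR-181d-5p, which holds nearly all counts of MIR181D, at 0.05. The value 0.4 is not a threshold of any test. miR-181a-3p, from MIR181A1 on chromosome 1, lay beside these arms at 0.40 (standard error 0.27), with groups that overlapped. For miR-181c-5p, miR-181c-3p and miR-181d-3p the exposed libraries were above the unexposed ones without overlap, as for 18.8% of all tested miRNAs. Among them, miR-181d-3p rested on 26 to 77 counts. For miR-181c-3p the lower exposed library (143 CPM) was all but equal to the higher unexposed one (142 CPM). Whether the 4 log2 fold changes of the cluster differ could not be settled, since the exact test of 2 libraries against 2 has no outcome under its threshold.

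The miR-23a cluster of MIR23A, MIR27A and MIR24-2 lies on the opposite strand of chromosome 19, and its nearest hairpin, MIR23A, is 38039 bases from MIR181C. Of 5 of its mature arms 4 were tested, and 0 had an unadjusted P under 0.05 in edgeR. The log2 fold change was -0.24 for miR-23a-3p, 0.06 for miR-27a-3p, -0.02 for miR-27a-5p and -0.13 for miR-24-2-5p, with adjusted p between 0.927 and 0.988. miR-23a-3p was at 172 and 174 CPM with ethanol and 215 and 193 CPM without it, the only one of these whose groups did not overlap, and it was the lower in exposed cells. miR-23a-5p, with 5 to 16 counts per library, was too rare to be tested. The remaining arm, miR-24-3p, which a hairpin elsewhere in the genome also gives, was added after its value was seen, with a log2 fold change of -0.05 (edgeR, adjusted p = 0.983).

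Among the neuronal markers, miR-124-3p, a driver of neuronal identity, was the only one with an unadjusted P under 0.05 in edgeR, at 0.0316 with an adjusted p of 0.922. It stood at 5405 and 3362 CPM with ethanol and 2947 and 2189.6 CPM without it, and its log2 fold change was 0.77 (standard error 0.30). Its exposed libraries lay above the unexposed ones without overlap, as for 18.8% of all tested miRNAs. The same held for miR-181c-3p, miR-181c-5p and miR-181d-3p and, among the neuronal markers, for miR-9-3p. Other neuronal markers had values in the opposite direction, with log2 fold changes of -0.64 for miR-7-5p, whose exposed libraries lay below the unexposed ones without overlap, -0.26 for miR-218-5p and -0.23 for miR-9-5p. Those of miR-9-3p (0.09), miR-128-3p (0.31), miR-137-3p (0.17) and miR-138-5p (0.26) were positive. Whether the cell make-up of the cultures had a part in these values was not tested, and in bulk RNA fewer cells of a type and less RNA per cell cannot be told apart.

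The miRNAs most like miR-181a-5p over the 4 libraries, among 369 others at 10 CPM or more on average, were miR-30c-5p, miR-34a-5p and miR-181b-3p. Likeness was the root mean square distance between log2 CPM values centred on each miRNA's mean, which was 0.0421, 0.0543 and 0.0548. miR-30c-5p was at 4146 and 3943 CPM with ethanol and 4307 and 3342 CPM without it, with the highest level in unexposed replicate 1 and the lowest in unexposed replicate 2, as for miR-181a-5p. miR-34a-5p was at 21.1 and 18.2 CPM with ethanol and 23.5 and 17.2 CPM without it. By the same measure miR-181b-5p was at 0.0924 and miR-181d-5p at 0.105 from miR-181a-5p, while miR-181a-2-3p, cut from a hairpin that also gives miR-181a-5p, was at 0.329, with 255 of the 369 nearer.

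**Figure D4:**
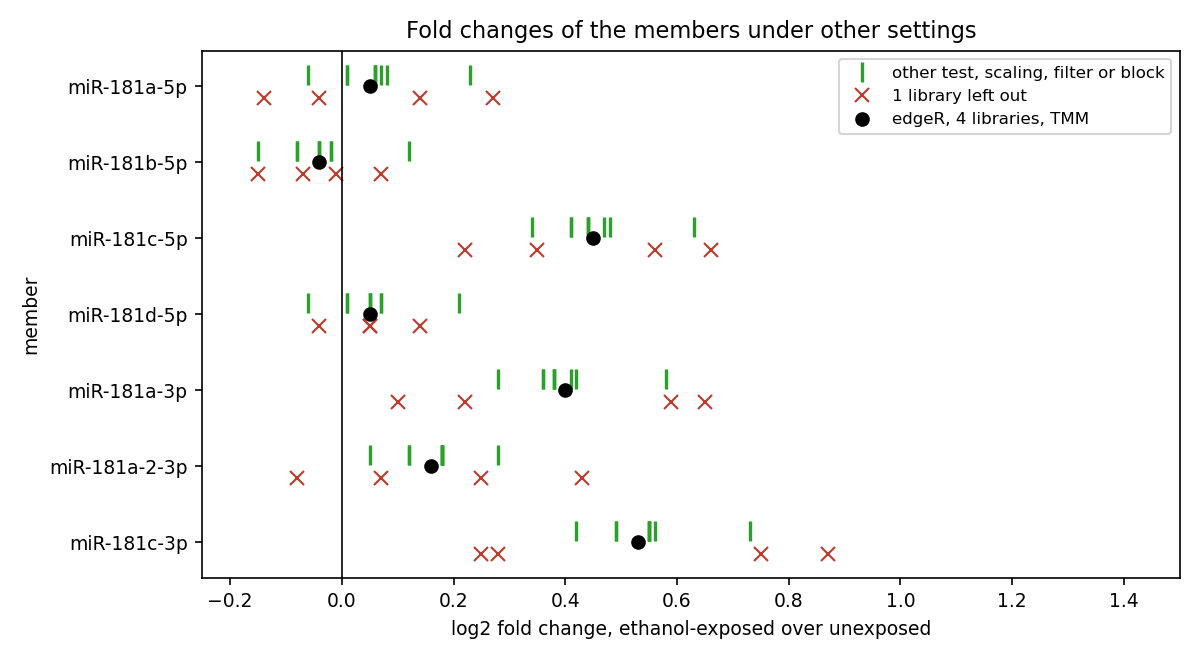
Log2 fold change of ethanol-exposed over unexposed interneurons for the 7 members in edgeR with all 4 libraries (black points), under another test, scaling, filter or block (green bars) and with 1 library left out in turn (red crosses). The values of miR-181c-5p, miR-181a-3p and miR-181c-3p stay above 0 under each of these, from 0.22, 0.10 and 0.25 upward, while those of the other 4 members fall on both sides of it.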

How the data were processed

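Small RNA-seq counts of 4 libraries, 2 ethanol-exposed and 2 unexposed as the sample labels give them, were used. The authors built NEBNext small RNA libraries, ran CAP-miRseq (version not given in the sources used here) and deposited the reads of each mature miRNA as raw counts, with no normalization. The submitters' processing notes name hg19; counts carry no coordinates, and positions and sequences were matched by name.

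The table of 2656 miRNAs was fitted as a whole in edgeR 4.0.16 (R 4.3.3): filterByExpr (minimum count 10, minimum total 15), TMM, the quasi-likelihood test without covariates and Benjamini-Hochberg adjustment over 863 miRNAs. Standard errors came from edgeR's F statistic. limma-voom (limma 3.58.1) and DESeq2 1.42.0 (no independent filtering or outlier replacement), other scaling and filters, a block on the replicate number and fits with 1 library left out were alternatives. The fit was tested on simulated counts. Arm ratios were compared with a two-sided exact permutation test.

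The members and lists were chosen with earlier results of these data known. Named were the members, the other arms of their hairpins, miRNAs with the seed of miR-181a-5p, the miR-23a cluster, the 3 miRNAs most like miR-181a-5p, and cell type markers. Among the markers, those given values were chosen after these were seen. Counts ranged from 12100425 to 24858230 per library, 3 counts was taken as the limit for a count of 0, and 95% Wilson intervals cover counting error only, as reads carry no molecular identifiers.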

Additional observations from a re-analysis of the deposited data

How the results depend on the processing

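The count of members with an unadjusted P under 0.05 was 0 under each alternative except library size only and leaving out unexposed replicate 1, where it was 1, miR-181c-3p both times. The count over all tested miRNAs, 39, became 94 when low counts were kept, 25 under the replicate block and 59 under the crossed replicate block, and with 1 library left out it ranged from 11 to 106. The direction turned with upper quartile scaling for miR-181a-5p (-0.06) and miR-181d-5p (-0.06), and with library size only for miR-181b-5p (0.12). miR-181c-3p passed a P of 0.05 at 0.73 with library size only. With each library left out in turn the log2 fold changes ranged from -0.14 to 0.27 for miR-181a-5p, -0.15 to 0.07 for miR-181b-5p, -0.04 to 0.14 for miR-181d-5p, -0.08 to 0.43 for miR-181a-2-3p, 0.10 to 0.65 for miR-181a-3p, 0.22 to 0.66 for miR-181c-5p and 0.25 to 0.87 for miR-181c-3p, the lone library being assumed to vary like the others. The cause was not tested. As to pairing, the log2 difference of replicate 1 from replicate 2 in exposed cells was set against that in unexposed cells. These differences had a correlation of -0.186 across 863 miRNAs, and nothing in the labels says that a number marks a shared culture. The replicate block changed no call of a member, with 0.55 for miR-181c-3p, and the crossed replicate block, chosen after seeing the data because of that correlation, gave 0 members and 59 miRNAs with a P under 0.05. Depth limits miR-181d-3p most (26 counts in unexposed replicate 2), and among the members miR-181c-5p (196 counts there).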
